A study of Mus musculus with 10 samples.

Results

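Mouse embryonic fibroblasts transfected with siRNA against Cirbp (siCirbp) were set against mock-transfected fibroblasts, both kept at 37 °C, and the mRNA level of each gene was compared. The comparison uses 2 siCirbp and 2 mock libraries, 4 of the 10 samples of the series. For each gene the FPKM of its listed transcripts (fragments scaled for transcript length and for the number of mapped fragments) were summed. A gene was kept where its mean over these 4 libraries was at least 1 FPKM and it had a transcript of at least 200 nt, which left 10725 of 22552 listed genes. The series also holds mock-transfected fibroblasts at 32 °C, fibroblasts with siRNA against Rbm3 at 37 °C, 2 libraries each, and PAR-CLIP libraries of fibroblasts that stably express FLAG-tagged Cirbp or Rbm3. All cells are described only as mouse embryonic fibroblasts grown in DMEM with serum, with no strain, genotype or age. Since the labels name mock transfection as the only control, an effect of losing Cirbp and a general effect of taking up siRNA cannot be told apart. It is not given whether the libraries of a group came from separate cultures, or whether the siCirbp numbers stand for different siRNAs, so p-values measure only the spread between these libraries.

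Cirbp is a small RNA-binding protein with an RNA recognition motif and a glycine-rich tail, and its mRNA is known to rise under mild cold. Its relative Rbm3 is built alike and is also induced by cold. Both proteins bind many mRNAs, with reported effects on translation, mRNA stability and the choice of polyadenylation site, and the series was designed around that last step.

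The depth recovered from the coverage column was 26900000 and 28100000 fragments in the siCirbp libraries, against 28200000 and 27300000 in mock. Across genes, the siCirbp libraries were apart by a median of 0.261 on the log2 scale and the mock libraries at 37 °C by 0.0876. So siCirbp varied more within its group than mock at 37 °C. The siRbm3 libraries, which enter the same fit, were apart by 0.313 and the mock libraries at 32 °C by 0.106. Fold changes were lower for longer transcripts: the median log2 fold change was 0.22 in the 25% of genes with the shortest transcripts and -0.07 in the 25% with the longest (Spearman rho of -0.284 across 10725 genes, which are not independent replicates). Of 14 fibroblast markers 13 were kept, with 0 past the threshold and a summed level of 7649 and 6667 FPKM in siCirbp, against 10009 and 10108 FPKM in mock, and Thy1 was listed at 0 in all libraries. Of the markers of other cell types, 1 to 3 of 8 to 10 per list were kept and 0 passed in either direction. The members Ptprc, Epcam, Pecam1, Myod1, Adipoq and Sox10, 1 from each list, were at 0 or at most 0.343 FPKM in all 4 libraries. Other members of these lists were expressed. The neural markers Sox2 (36.9 and 37.8 FPKM in siCirbp, 29.2 and 32.8 in mock) and Nes (19.6 and 38.7 in siCirbp, 20.7 and 20.4 in mock) were present. The neural list summed to 60.6 and 78.5 FPKM in siCirbp, against 52.9 and 56.5 in mock. The muscle list was close to that, at 68.6 and 67.4 FPKM in siCirbp, against 50.3 and 54.8 in mock. Sums for adipocyte were 34.5 and 11.96 FPKM in siCirbp, against 19.3 and 20.4 in mock. Endothelium and macrophage lists reached at most 20.5 and 20.6 FPKM in any of the 4 libraries, and epithelium at most 1.8.

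Cirbp itself, on mm9 chr10:79630586-79634398, was at 10.8 and 6.07 FPKM in siCirbp, against 15.9 and 17.1 FPKM in mock. Both siCirbp libraries lay below both mock libraries, and replicate 2 held the lower level. The values rest on 303 and 179 fragments in siCirbp and on 469 and 491 in mock. The log2 fold change of -0.94 (SE 0.30) did not pass limma's test at an adjusted p of 0.05 (limma adjusted p = 0.103). Without either siRbm3 library the same difference passed (limma adjusted p = 0.0408 in each case), and the mean siCirbp level was 0.51 of that in mock. The label and the targeted gene therefore go the same way in both libraries, with mRNA still present at a level that is unequal between them. Rbm3, on mm9 chrX:7716101-7722928, stood at 5.54 and 7.55 FPKM in siCirbp, against 1.85 and 2.21 FPKM in mock. Its log2 fold change of 1.31 (SE 0.29) lay just outside the threshold (limma adjusted p = 0.0501) and passed without either siRbm3 library (limma adjusted p = 0.0105 in each case). With any 1 other library left out it did not pass, with limma adjusted p from 0.0559 to 0.383, nor with the length trend removed (limma adjusted p = 0.105).

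Cell cycle genes led the rises: 35 of 52 genes of DNA replication, 9 of 14 of deoxynucleotide supply and 29 of 50 of mitosis were higher in siCirbp. The galectin gene Lgals3, the chemokine gene Cxcl1 and 8 of 22 immediate early genes were lower. Of 10725 genes, 458 passed limma's adjusted p of 0.05 (4.27%), with 377 higher in siCirbp (3.52%) and 81 lower (0.755%). At least 2-fold differences were held by 166 of the higher and 44 of the lower genes. Without adjustment 2669 of the 10725 genes had a limma p under 0.05, 1947 of them higher and 722 lower. The median log2 fold change over all genes was 0.09, and 59.3% of genes had a positive value. Both siCirbp libraries lay above both mock libraries for 39.1% of genes and below them for 21.9%. The 377 genes had a median longest transcript of 1871 nt and the 81 genes one of 3488 nt, against 2854 nt over all genes. With quantile normalization 305 genes were higher and 150 lower. Without both siRbm3 libraries 1254 of the 10725 genes were higher and 505 lower, and with the length trend removed 59 were higher and 49 lower. List counts in these settings are to be read beside these totals. The number of calls rests on single libraries: it was 0 without mock 37 °C replicate 1 or 2, mock 32 °C replicate 1 or 2, or siCirbp replicate 2, 806 without siCirbp replicate 1, and 1762 or 1757 without siRbm3 replicate 1 or 2. Each list described below has a count of 0 wherever the total is 0.

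**Figure D1:**
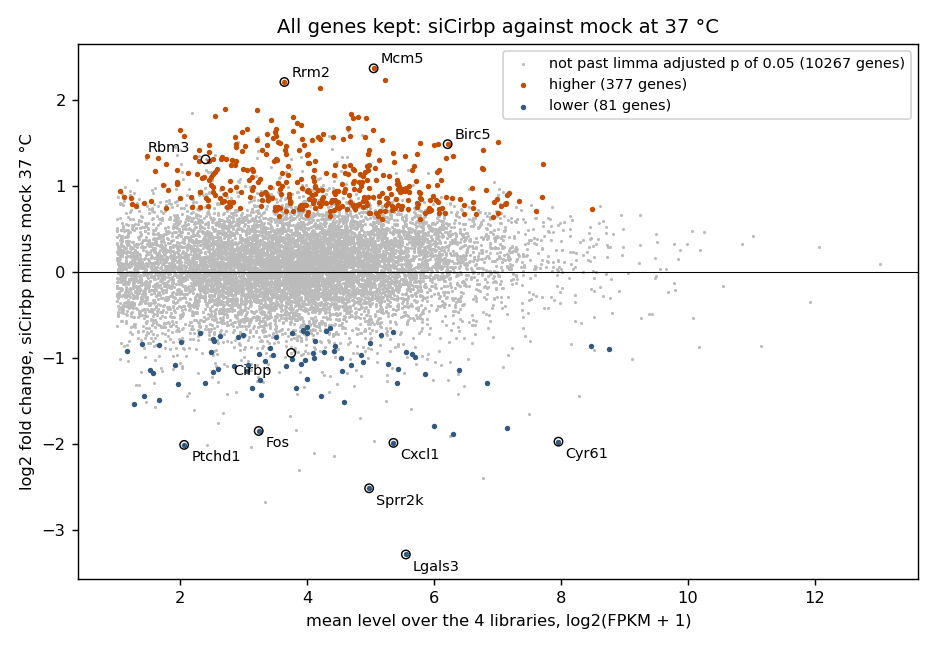
Each point is 1 of the 10725 genes, with its mean level over the 4 libraries on the x axis and the log2 fold change of siCirbp minus mock at 37 °C on the y axis, both on the log2(FPKM + 1) scale; the 377 higher and 81 lower genes past limma's adjusted p of 0.05 are coloured. Mcm5 is the highest called point at 2.36 and Lgals3 the lowest at -3.28, while Cirbp at -0.94 and Rbm3 at 1.31 lie among genes that did not pass.

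The MCM proteins form the helicase that is loaded at origins in G1 phase and opens the DNA ahead of the fork, and all 6 subunit genes Mcm2 to Mcm7 rose. Mcm5, on mm9 chr8:77633427-77652338, had 42.4 and 67.0 FPKM in siCirbp, against 8.48 and 10.8 FPKM in mock, and rose by a log2 fold change of 2.36 (SE 0.29, limma adjusted p = 0.0182). Mcm3 had 50.7 and 71.5 FPKM in siCirbp, against 11.3 and 12.99 FPKM in mock (log2 fold change 2.22, SE 0.30, limma adjusted p = 0.0200). Mcm2 had 32.6 and 52.7 FPKM in siCirbp, against 9.95 and 12.8 FPKM in mock, and Mcm4 had 31.1 and 62.7 FPKM in siCirbp, against 11.4 and 12.7 FPKM in mock, a log2 fold change of 1.79 for each. For every subunit the lower siCirbp library was still above the higher mock library, and replicate 2 of siCirbp was the higher one. A relation to the Cirbp level of each library was not tested. Mcm7 (21.5 and 30.8 FPKM in siCirbp, 7.21 and 9.0 in mock) and Mcm6 (54.0 and 90.6 FPKM in siCirbp, 28.8 and 29.6 in mock) rose by 1.56 and 1.23 on the log2 scale.

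Of the 5 subunit genes with a window, Mcm3, Mcm5, Mcm6 and Mcm7 held E2F-type letters, and the first 3 are shown; these are letters that E2F factors of the G1/S transition are known to bind. The windows run from 250 bases before to 50 bases after the gene start, from RefSeq, and capitals mark TTTGGCGC or TTTCCCGC on either strand.
Mcm3 (GRCm38.p6, chr1:20820263-20820562, minus strand): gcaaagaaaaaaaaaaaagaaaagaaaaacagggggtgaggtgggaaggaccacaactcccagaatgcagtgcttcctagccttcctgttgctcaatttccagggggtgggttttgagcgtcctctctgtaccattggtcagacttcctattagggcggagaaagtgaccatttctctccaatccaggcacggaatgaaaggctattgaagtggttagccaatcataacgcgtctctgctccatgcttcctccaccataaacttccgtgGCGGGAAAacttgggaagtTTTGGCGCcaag
Mcm5 (GRCm38.p6, chr8:75109259-75109558, plus strand): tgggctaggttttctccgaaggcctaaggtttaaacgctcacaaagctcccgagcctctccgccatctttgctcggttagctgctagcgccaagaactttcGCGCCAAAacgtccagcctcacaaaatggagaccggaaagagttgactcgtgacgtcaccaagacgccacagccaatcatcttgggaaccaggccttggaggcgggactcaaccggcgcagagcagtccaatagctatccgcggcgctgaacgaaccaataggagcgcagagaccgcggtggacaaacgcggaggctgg
Mcm6 (GRCm38.p6, chr1:128359656-128359955, minus strand): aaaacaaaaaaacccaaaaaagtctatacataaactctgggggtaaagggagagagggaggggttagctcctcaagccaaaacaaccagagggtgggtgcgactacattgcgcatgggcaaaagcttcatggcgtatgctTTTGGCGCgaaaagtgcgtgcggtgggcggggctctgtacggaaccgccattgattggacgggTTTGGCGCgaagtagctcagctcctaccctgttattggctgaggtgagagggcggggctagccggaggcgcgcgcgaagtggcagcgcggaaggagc
Mcm3 held 2 matches, at positions 20 and 39 from the gene start, Mcm5 held 1 at -149, and Mcm6 held 2 at -110 and -47. Mcm7 held 1 at -165 in one of its 2 windows. Of the replication genes that matched a window, 14 of 43 (32.6%) held such letters, against 3.76% of 8633 matched genes tested and 1.56% of all 32851 windows. Among genes called higher 28 of 307 (9.12%) held them, and among genes called lower 2 of 65 (3.08%). Of 13 deoxynucleotide supply genes with a window 0 held them. A match describes letters only, and most replication genes, Mcm2 among them, had none in this window.

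Over the list of replication licensing and fork genes, 35 of 52 rose, none fell and 17 did not pass, with a median log2 fold change of 1.24 against 0.09 for all genes. In 49 of the 52 both siCirbp libraries lay above both mock libraries, as they did for 39.1% of all genes. The list's median was 1.05 in siCirbp replicate 1 and 1.5 in replicate 2, each against the mock mean. Licensing factors were among the rises: Cdc6, which loads the helicase, had 3.16 and 7.06 FPKM in siCirbp, against 0.780 and 0.914 FPKM in mock (log2 fold change 1.65), and Gmnn, which encodes the inhibitor geminin, rose by 1.19. Mcm10, which helps to start the fork, had 9.51 and 17.9 FPKM in siCirbp, against 2.80 and 2.89 FPKM in mock (log2 fold change 1.87). At the fork, Gins2, a helicase partner, rose by 1.57, the polymerase epsilon subunit gene Pole2 by 1.39, and the sliding clamp gene Pcna by 1.47. Fen1 and Lig1, which process and seal Okazaki fragments, rose by 1.83 and 1.54, and the histone chaperone genes Chaf1a and Asf1b by 1.67 and 1.58. 2810417H13Rik, named Pclaf in RefSeq, encodes a clamp-binding factor and had 23.2 and 35.1 FPKM in siCirbp, against 5.46 and 6.03 FPKM in mock (log2 fold change 2.13). The origin recognition genes Orc3 and Orc4 had -0.14 and 0.16 and the fork gene Wdhd1 had 0.04, and none of them passed. Without both siRbm3 libraries 43 of the 52 rose, and with the transcript length trend removed 15 did (median 1.12). The count was 0 without any 1 mock library or without siCirbp replicate 2, with 41 to 43 members still at an unadjusted p under 0.05 and higher.

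The enzymes that make DNA precursors rose with them. Of 14 genes of deoxynucleotide supply 9 rose, none fell and 5 did not pass (median log2 fold change 1.49; 1.13 in siCirbp replicate 1 and 1.76 in replicate 2). Rrm2, the cell cycle regulated subunit of ribonucleotide reductase, had 13.2 and 26.3 FPKM in siCirbp, against 3.24 and 3.30 FPKM in mock (log2 fold change 2.20, SE 0.32, limma adjusted p = 0.0222). Its partner subunit Rrm1 had 69.9 and 90.6 FPKM in siCirbp, against 27.6 and 27.7 FPKM in mock (log2 fold change 1.49). Groups did not overlap for either subunit. Thymidylate synthase (Tyms) rose by 1.66 and thymidine kinase Tk1 by 1.53, although the near-identical copy Tyms-ps is listed apart at 1.57, so the share of Tyms reads that belongs to each is uncertain. The nucleoside diphosphate kinase gene Nme1 rose by 1.5. Cad, Umps and Ctps, of pyrimidine ribonucleotide synthesis, had 0.57, 0.53 and -0.08 and did not pass. Of the 14 genes 10 rose without both siRbm3 libraries, 2 with the length trend removed, and 0 without any 1 mock library or siCirbp replicate 2, where 10 had an unadjusted p under 0.05.

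Many genes of mitosis rose, with the siCirbp libraries close together for those shown first. Of 50 genes of mitotic kinases, spindle and kinetochore 29 rose, none fell and 21 did not pass. Their median log2 fold change was 1.08 (0.99 in siCirbp replicate 1 and 1.15 in replicate 2). In 49 of 50 both siCirbp libraries lay above both mock libraries, against 39.1% of all genes. Birc5, which encodes survivin of the chromosomal passenger complex, had 108 and 109 FPKM in siCirbp, against 36.4 and 40.0 FPKM in mock (log2 fold change 1.48, SE 0.14, limma adjusted p = 0.0182). Aurkb, the kinase of the same complex, had 32.2 and 32.6 FPKM in siCirbp, against 13.9 and 14.2 FPKM in mock (log2 fold change 1.15, SE 0.14). Cenpn, of the inner kinetochore, had 16.5 and 18.4 FPKM in siCirbp, against 6.17 and 6.03 FPKM in mock (log2 fold change 1.37). Nuf2 of the outer kinetochore rose by 1.54, the polo kinase Plk1 by 1.14 and the anaphase activator Cdc20 by 0.97. Mki67, whose protein is a common proliferation marker, had 33.3 and 64.1 FPKM in siCirbp, against 36.5 and 36.3 FPKM in mock: replicate 1 lay below both mock libraries, replicate 2 above them, and the gene did not pass (limma adjusted p = 0.700). Of the 50, 45 rose without both siRbm3 libraries, and with the length trend removed 16 did. The count was 0 without any 1 mock library or without siCirbp replicate 2, with 38 to 44 members still at an unadjusted p under 0.05.

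Promoters of G2 and mitosis genes are known for a cell cycle homology region, TTTGAA, next to CCAAT boxes. Both windows below are from RefSeq, run from 250 bases before to 50 bases after the gene start, and are shown because each holds 2 matches; capitals mark TTTGAA on either strand.
Cdk1 (GRCm38.p6, chr10:69352863-69353162, minus strand): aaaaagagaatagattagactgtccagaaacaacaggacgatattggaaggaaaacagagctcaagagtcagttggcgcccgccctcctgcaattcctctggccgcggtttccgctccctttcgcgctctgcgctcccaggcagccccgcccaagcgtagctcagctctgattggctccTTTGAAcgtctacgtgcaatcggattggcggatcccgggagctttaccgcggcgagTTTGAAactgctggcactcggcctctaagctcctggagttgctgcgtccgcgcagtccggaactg
Ccnf (GRCm38.p6, chr17:24251360-24251659, minus strand): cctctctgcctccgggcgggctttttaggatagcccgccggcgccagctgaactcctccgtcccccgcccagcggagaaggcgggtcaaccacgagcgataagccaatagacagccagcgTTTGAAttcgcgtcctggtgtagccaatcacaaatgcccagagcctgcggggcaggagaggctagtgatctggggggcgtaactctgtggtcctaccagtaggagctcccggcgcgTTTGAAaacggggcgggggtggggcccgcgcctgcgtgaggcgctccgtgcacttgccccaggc
The matches began at -71 and -15 for Cdk1 and at -130 and -14 for Ccnf. Of the mitotic genes with a window 32 of 45 (71.1%) held TTTGAA, against 13.9% of matched genes tested, 22.8% of genes called higher, 6.15% of genes called lower and 17.9% of all windows. CCAAT, on either strand, was held by 34 of 45 mitotic genes (75.6%) and by 43.8% of matched genes tested. The letters of TTTGAA overlapped CCAAT in 47 of the 32851 windows and overlapped the E2F letters in 0.

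Fewer of the cycle regulators passed than of the replication and mitosis genes, a difference that was not tested. Of 30 cyclins, CDKs and E2F circuit genes 8 rose and none fell (median log2 fold change 0.61). Ccna2, the cyclin of S phase and G2, had 102 and 106 FPKM in siCirbp, against 42.2 and 39.6 FPKM in mock (log2 fold change 1.33, SE 0.15, limma adjusted p = 0.0182). Cdk1, the mitotic kinase, had 58.7 and 56.7 FPKM in siCirbp, against 22.2 and 24.4 FPKM in mock (log2 fold change 1.27, SE 0.15), and Ccnb1, its cyclin partner, rose by 1.18. Ccne1, the cyclin that drives entry into S phase, rose by 1.42, and the transcription factor genes Mybl2, E2f8 and Foxm1 by 1.42, 1.33 and 1.02. The G1 cyclins Ccnd1, Ccnd2 and Ccnd3, with log2 fold changes of 0.53, -0.89 and 0.39, did not pass. Neither did the inhibitor Cdkn1a (-0.41) nor Myc, which had 24.9 and 42.5 FPKM in siCirbp, against 63.6 and 76.2 FPKM in mock (log2 fold change -1.07, limma adjusted p = 0.106). With both siRbm3 libraries left out 16 of the 30 rose and 4 fell, and with the length trend removed 2 rose and 1 fell.

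**Figure D2:**
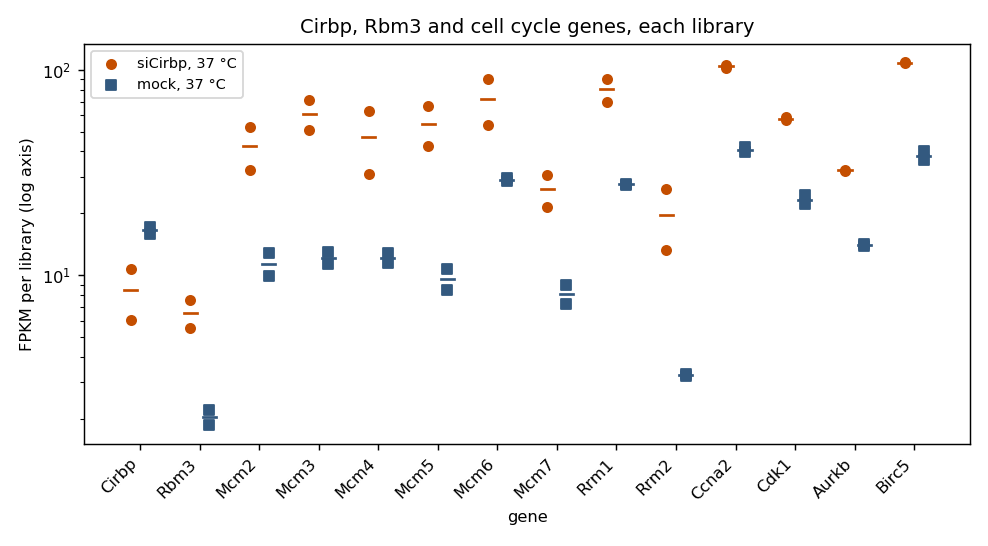
Points are the FPKM of each library on a log axis, with siCirbp at 37 °C (circles) left of mock at 37 °C (squares) for each gene, and bars are the means of 2 libraries. Cirbp is lower in both siCirbp libraries, all other genes shown are higher, and the siCirbp libraries lie close together for Ccna2, Cdk1, Aurkb and Birc5 but apart for the MCM genes and Rrm2.

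Of 30 genes of the DNA damage response and recombination repair 7 rose, none fell and 23 did not pass (median log2 fold change 0.81). The share of all genes called higher was 3.52%. Rad54l, a DNA motor of recombination repair, had 8.29 and 13.7 FPKM in siCirbp, against 2.95 and 2.66 FPKM in mock (log2 fold change 1.62, SE 0.26, limma adjusted p = 0.0252). The nuclease gene Exo1 rose by 1.57, the recombination gene Xrcc2 by 1.0, the checkpoint kinase Chek2 by 0.93 and Fancd2 by 0.75. The signalling kinase gene Atm had 0.16, Trp53bp1 had 0.02, and the kinase gene Atr had -0.18, the lowest of the list. With both siRbm3 libraries left out 21 of these 30 rose, and with the length trend removed 1 did. Outside the lists, Tcf19, a nuclear factor gene regulated with growth, had 31.4 and 49.0 FPKM in siCirbp, against 10.2 and 11.2 FPKM in mock (log2 fold change 1.78). 2610002D18Rik, named Aunip in RefSeq, had 5.19 and 11.4 FPKM in siCirbp, against 1.61 and 1.38 FPKM in mock (log2 fold change 1.81).

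The falls were led by genes outside the cell cycle. Lgals3, on mm9 chr14:47993535-48005842, encodes galectin-3, a secreted and cytoplasmic lectin, and had 7.95 and 7.65 FPKM in siCirbp, against 83.4 and 85.4 FPKM in mock (log2 fold change -3.28, SE 0.56, limma adjusted p = 0.0284). Of 22 galectins, annexins and S100 genes it was the 1 that fell, and Lgals7, at 3.54 and 3.29 FPKM in siCirbp, against 1.37 and 1.04 FPKM in mock, was the 1 that rose (log2 fold change 1.01). The shares of all genes called lower and higher were 0.755% and 3.52%. Sprr2k, of the small proline-rich family known from the epidermal envelope, had 6.22 and 11.1 FPKM in siCirbp, against 52.0 and 52.9 FPKM in mock (log2 fold change -2.51). Ptchd1, a patched-domain membrane protein gene, had 0.592 and 0.741 FPKM in siCirbp, against 6.02 and 5.39 FPKM in mock, which rests on 100 and 131 fragments in siCirbp and 1065 and 925 in mock (log2 fold change -2.01). In Lgals3, Sprr2k and Ptchd1 the siCirbp libraries lay below both mock libraries, which was a condition for naming the largest falls. Nt5e, an ecto-nucleotidase gene that marks mesenchymal cells, had 5.21 and 3.38 FPKM in siCirbp, against 13.3 and 12.8 FPKM in mock (log2 fold change -1.43). Btg2, an antiproliferative gene and p53 target, had 10.3 and 7.80 FPKM in siCirbp, against 27.3 and 25.2 FPKM in mock (log2 fold change -1.45).

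Immediate early genes are switched on within minutes of growth factor or stress signals and encode transcription factors and signal dampers. Of 22 kept, 8 fell, none rose and 14 did not pass, with a median log2 fold change of -0.78 (-0.80 in siCirbp replicate 1 and -0.66 in replicate 2). The groups did not overlap, with siCirbp below, in 19 of the 22, against 21.9% of all genes. Fos, an AP-1 subunit gene, had 3.51 and 2.73 FPKM in siCirbp, against 13.9 and 13.6 FPKM in mock (log2 fold change -1.85, SE 0.19, limma adjusted p = 0.0182). Egr1, a zinc finger factor gene, had 58.6 and 66.0 FPKM in siCirbp, against 211 and 230 FPKM in mock (log2 fold change -1.81, SE 0.23). Ier2 had 26.8 and 39.5 FPKM in siCirbp, against 113 and 134 FPKM in mock (log2 fold change -1.88). Zfp36, whose protein tristetraprolin drives decay of AU-rich mRNAs, had 11.3 and 11.7 FPKM in siCirbp, against 33.6 and 35.5 FPKM in mock (log2 fold change -1.5). Junb, Klf2, the MAP kinase phosphatase gene Dusp1 and Jun fell by 1.29, 1.15, 1.08 and 0.82 on the log2 scale. Fosl2 had 48.8 and 51.0 FPKM in siCirbp, against 112 and 117 FPKM in mock, and did not pass (log2 fold change -1.18, limma adjusted p = 0.0586). Ier5 (0.27) and Klf4 (0.25) had positive values. Of the 22, 9 fell without both siRbm3 libraries, and with the length trend removed 5 did. The count was 0 without any 1 mock library or without siCirbp replicate 2, with 10 to 14 members still at an unadjusted p under 0.05 and lower.

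**Figure D3:**
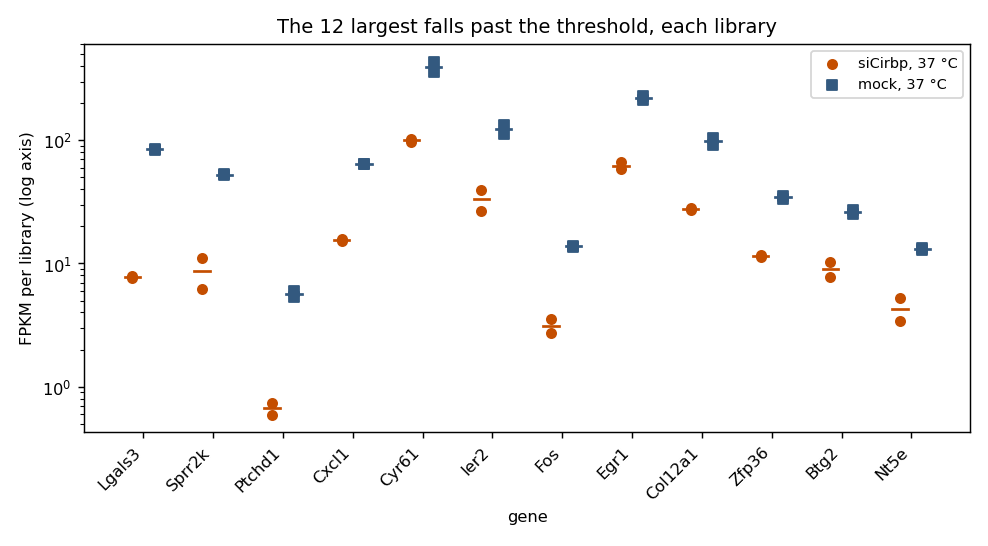
Points are the FPKM of each library on a log axis for the 12 largest falls past limma's adjusted p of 0.05 whose higher group averaged 5 FPKM or more, with siCirbp at 37 °C (circles) left of mock at 37 °C (squares) and bars at the means of 2 libraries. The 12 genes run from Lgals3 (log2 fold change -3.28) to Nt5e (-1.43). Both siCirbp libraries lie below both mock libraries in each, which the choice of these genes required.

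Among 25 genes of chemokines, NF-kB and prostaglandins 3 fell and none rose (median log2 fold change -0.27), where 0.755% of all genes were called lower. Cxcl1, a neutrophil-attracting chemokine gene, had 15.9 and 15.3 FPKM in siCirbp, against 64.8 and 64.5 FPKM in mock (log2 fold change -1.98, SE 0.20, limma adjusted p = 0.0182). Cxcl5, of the same family, fell by 1.08, and Ptgs2, the inducible cyclooxygenase gene, had 23.3 and 24.5 FPKM in siCirbp, against 59.2 and 60.9 FPKM in mock (log2 fold change -1.29). The pathway members Nfkb1 (-0.02), Nfkbia (-0.09) and Relb (0.00) had values near 0. Of 30 YAP and SRF targets 1, Cyr61, fell and none rose (median -0.30). Cyr61, a matricellular protein gene, had 97.5 and 103 FPKM in siCirbp, against 358 and 435 FPKM in mock (log2 fold change -1.97, SE 0.27, limma adjusted p = 0.0205). Its relative Ctgf had 26.7 and 27.1 FPKM in siCirbp, against 37.3 and 39.1 FPKM in mock, and did not pass (log2 fold change -0.49). The myosin light chain gene Myl9, at 1.79 and 1.75 FPKM in siCirbp, against 0.487 and 0.460 FPKM in mock, had 0.91 and did not pass (limma adjusted p = 0.0603). With both siRbm3 libraries left out, 6 of the 30 YAP and SRF targets fell and 1 rose. CATTCC, the core letters of TEAD sites, on either strand, stood in the promoter window of 13 of 24 matched members (54.2%), against 14.0% of matched genes tested, 13.03% of genes called higher and 15.4% of genes called lower.

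Collagens and other matrix proteins are the main product of fibroblasts. Of 30 collagens and matrix glycoproteins 2 fell and none rose (median log2 fold change -0.55). Both siCirbp libraries lay below both mock libraries in 22 of 30, against 21.9% of all genes. The share of all genes called lower was 0.755%. Their summed level was 16203 and 10850 FPKM in siCirbp, against 14185 and 14414 FPKM in mock, so replicate 1 lay above both mock libraries. Most of that sum was Spp1, which encodes osteopontin, at 11443 and 6232 FPKM in siCirbp, against 7855 and 7967 FPKM in mock. Col12a1, a fibril-associated collagen gene, had 28.2 and 27.0 FPKM in siCirbp, against 104 and 92.3 FPKM in mock (log2 fold change -1.79, SE 0.20, limma adjusted p = 0.0182). Dcn, which encodes the proteoglycan decorin, had 291 and 315 FPKM in siCirbp, against 586 and 542 FPKM in mock (log2 fold change -0.89). Col6a3, at 2.57 and 2.29 FPKM in siCirbp, against 13.6 and 12.4 FPKM in mock (log2 fold change -2.03), and fibronectin Fn1, at 468 and 286 FPKM in siCirbp, against 736 and 741 FPKM in mock (-1.01), did not pass (limma adjusted p = 0.0561 and 0.0534). Their transcripts are long, with a median of 5385 nt over the list, and 1 gene fell once the length trend was taken out, at a list median of -0.51. Of 21 matrix proteases and inhibitors 2 fell, the collagenase gene Mmp13 (0.769 and 0.360 FPKM in siCirbp, 1.84 and 2.00 in mock) and Adamts12 (limma adjusted p = 0.0497), and the median was -0.56. Without both siRbm3 libraries 15 of the 30 matrix genes fell with 1 rise, and 7 of the 21 proteases and inhibitors fell. In that setting 505 of all 10725 genes fell and 1254 rose.

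Growth and mitochondrial genes had positive medians. Their calls are to be read beside 3.52% called higher and 0.755% called lower over all genes. All 28 genes of ribosome biogenesis and MYC-type growth had a positive log2 fold change (median 0.73), yet none passed limma's test (19 had an unadjusted p under 0.05), with limma adjusted p of 0.0561 for Gar1 and 0.0637 for Nhp2, both of the box H/ACA snoRNP. The libraries differed here: the list's median was 0.28 in siCirbp replicate 1 and 1.05 in replicate 2. Of 35 mitochondrial ribosomal protein genes 6 rose (median 0.51), such as Mrpl18, at 57.8 and 54.7 FPKM in siCirbp, against 28.7 and 25.6 FPKM in mock (log2 fold change 1.02, SE 0.14, limma adjusted p = 0.0200). Of 54 genes of the respiratory chain and ATP synthase 2 rose (median 0.46), Ndufa4 by 1.26 and Ndufa5 by 0.99. These are short mRNAs, with median longest transcripts of 1065 and 765 nt, and with the length trend removed no member of either list passed and the medians were 0.31 and 0.23. In glycolysis and hypoxia 1 of 30 genes, the mitophagy receptor gene Bnip3, fell, and the list's median was 0.02 in siCirbp replicate 1 and -0.80 in replicate 2. Car9, a hypoxia-induced carbonic anhydrase gene, had 3.46 and 0.609 FPKM in siCirbp, against 16.4 and 15.9 FPKM in mock, and did not pass (log2 fold change -2.68, SE 0.63, limma adjusted p = 0.0561).

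The lists of RNA-binding and RNA-processing genes, the neighbours of Cirbp in function, held at most 1 call each. Over all genes 3.52% were called higher and 0.755% lower. Of 18 cold-inducible and related RNA-binding proteins 1, Ybx1, a cold-shock-domain mRNA packaging protein gene, rose (43.9 and 49.8 FPKM in siCirbp, 26.6 and 27.2 in mock; log2 fold change 0.78, SE 0.14, limma adjusted p = 0.0317). Rbm8a (0.69) and Elavl1 (0.51) did not pass. Of 21 SR protein and CLK kinase genes and of 22 cleavage and polyadenylation genes limma called 0 in both (7 and 5 at an unadjusted p under 0.05, all higher), with medians of 0.29 and 0.21. The splicing factor Srsf2 had 146 and 189 FPKM in siCirbp, against 83.5 and 94.8 FPKM in mock (log2 fold change 0.89, limma adjusted p = 0.0568), and Pabpn1, the nuclear poly(A)-binding protein gene, had 73.2 and 59.2 FPKM in siCirbp, against 43.2 and 44.7 FPKM in mock (0.57, limma adjusted p = 0.0750). Without both siRbm3 libraries 8 genes of the first list rose and 1, Cirbp, fell, and 7 and 5 genes rose in the other two lists. Of 12 small RNA pathway genes 1, the Argonaute gene Eif2c2 (Ago2), fell, at 11.98 and 17.1 FPKM in siCirbp, against 29.98 and 29.5 FPKM in mock (log2 fold change -1.0, limma adjusted p = 0.0388).

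Stress, clock, p53, lysosome and lipid lists held at most 2 calls each, where 3.52% of all genes were called higher and 0.755% lower. Of 31 ER stress and ATF4 targets 2 rose, the chaperone genes Calr (0.73) and Dnajb11 (0.70), with a list median of 0.07. Of 21 heat shock chaperones 1 rose, Hspa14 (0.78; list median 0.35). Of 22 clock genes 1 rose: Cry1, a repressor of the clock loop, had 8.06 and 6.98 FPKM in siCirbp, against 3.46 and 3.65 FPKM in mock (log2 fold change 0.90, SE 0.17, limma adjusted p = 0.0325). Per2 (0.62), Nr1d1 (-0.72) and Arntl (0.00) did not pass. Of 22 p53 targets Btg2 and Plk2 (-0.92) fell and none rose (median -0.09), with Mdm2 at -0.07 and Cdkn1a at -0.41. Of 28 lysosome genes 1, Gusb, rose by 0.76. In cholesterol synthesis, in interferon response and double-stranded RNA sensing, and in replication-dependent histones, limma called 0 of 25, 19 and 10 genes (5, 2 and 1 at an unadjusted p under 0.05), with medians of 0.11, -0.11 and -0.11. An unadjusted limma p under 0.05 was held by 2669 of all 10725 genes. The double-stranded RNA sensors Ddx58, Tlr3 and Eif2ak2 had -0.11, 0.19 and 0.34, and the effector gene Isg15 had -0.16. Only 10 of 24 listed replication-dependent histone genes were kept. Polyadenylated RNA was sequenced, so histone mRNAs without a poly(A) tail would largely be missed. The histone list split by library, with medians of 0.42 in siCirbp replicate 1 and -0.55 in replicate 2, and Hist1h1c stood at 108 and 16.4 FPKM in siCirbp, against 92.9 and 84.8 FPKM in mock.

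**Figure D4:**
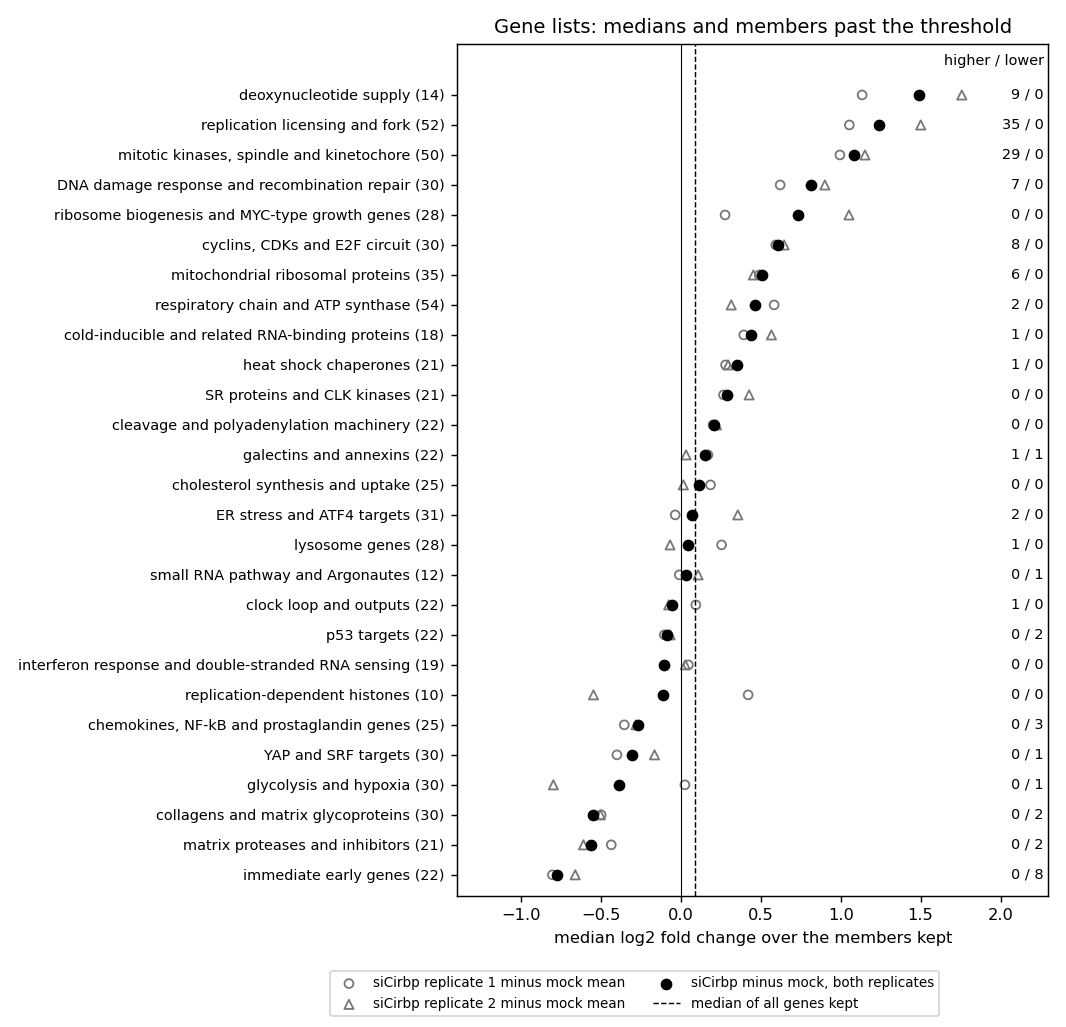
Each row is a gene list with its number of kept members; black points are the median log2 fold change of siCirbp minus mock at 37 °C, open circles and triangles the same for siCirbp replicates 1 and 2 against the mock mean, the dashed line the median of all genes (0.09), and the numbers at the right count members higher and lower past limma's adjusted p of 0.05. Deoxynucleotide supply (1.49), replication (1.24) and mitosis (1.08) lie highest and immediate early genes (-0.78) lowest, while the open symbols lie farthest apart for ribosome biogenesis, glycolysis and hypoxia, and histones.

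The series maps where FLAG-tagged Cirbp touches RNA, which allows binding and mRNA level to be set side by side. PAR-CLIP crosslinks RNA that holds 4-thiouridine to the protein, and the deposited list gives 1941 Cirbp sites on mm9, from 1 library. Of these 1590 lay in a listed gene locus. Matches on the opposite strand (50) were not used, and 470 matches to genes of unknown strand were kept. The sites used fell in 993 genes, of which 894 were kept, and none of the sites used lay in the loci of Cirbp or Rbm3. Among the 894 genes 22 rose (2.46%) and 2 fell (0.224%), with a median log2 fold change of 0.10 and quartiles of -0.13 and 0.35. Among the 9831 genes without a site 355 rose (3.61%) and 79 fell (0.804%), with a median of 0.08 and quartiles of -0.17 and 0.34. Genes with a site were expressed higher, at a median of 23.8 FPKM in mock against 12.1 FPKM for the rest. They were also longer, with a median transcript length of 3854 nt against 2723 nt, and fold changes were lower for longer transcripts. No length correction was made for this split. With a mean of at least 5 FPKM, 2.26% of 840 genes with a site and 4.06% of 7634 without one rose, with medians of 0.11 and 0.10. With 2 or more sites the median of 271 genes was 0.12. The split was given no test. Mcm2, Tcf19, Exo1, Rfc3, Ccna2 and Ybx1 are among the 22, each with 1 site, and the 2 lower genes are Egr1 and C030046E11Rik (Ric1 in RefSeq); these were picked after their values were seen.

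The 5 kept genes with the highest site score, which runs from 1 to 1000 on a scale the files do not define, did not pass. Srsf1, a splicing factor gene with 14 sites and a top score of 938, had 80.6 and 97.0 FPKM in siCirbp, against 48.2 and 47.4 FPKM in mock (log2 fold change 0.87, limma adjusted p = 0.109). Serbp1, an mRNA-binding protein gene with 7 sites, had 62.3 and 73.3 FPKM in siCirbp, against 44.5 and 43.7 FPKM in mock (0.60, limma adjusted p = 0.0646), and the spindle checkpoint gene Bub3, with 5 sites, had 61.7 and 63.5 FPKM in siCirbp, against 38.3 and 38.5 FPKM in mock (0.69, limma adjusted p = 0.0578). In these 3 genes both siCirbp libraries were above both mock libraries. Xpo1, the nuclear export receptor gene, with 3 sites, had 0.41, and Rc3h2, an RNA-decay ubiquitin ligase gene with 9 sites, had -0.05, at 11.3 and 12.6 FPKM in siCirbp and 12.3 and 12.6 FPKM in mock.

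**Figure D5:**
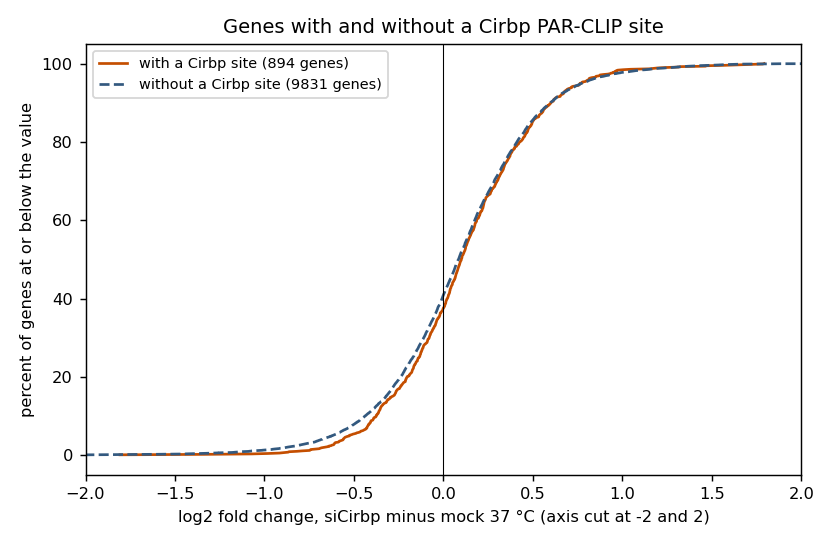
The curves give the percent of genes at or below each log2 fold change of siCirbp minus mock at 37 °C, for 894 genes with a Cirbp PAR-CLIP site (solid) and 9831 without one (dashed). The curves lie close together, with medians of 0.10 and 0.08, and the solid curve lies below the dashed one on the negative side.

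Which transcript of a gene is made, which the series addresses through polyadenylation, was compared as the share of each transcript in its gene. Genes entered with a mean of 5 FPKM or above and 2 or more transcripts that each reached 10%, which gave 1320 genes. Here limma called 0 of 2894 transcripts (0%), with a smallest adjusted p of 0.105; 341 (11.8%), of 198 genes, had an unadjusted p under 0.05. Without mock 37 °C replicate 1 or 2 limma called 7 or 2 transcripts. The smallest p belonged to Mocs1, of molybdenum cofactor synthesis, whose transcript NM_028464 made up 29.3% and 45.9% of the gene in siCirbp, against 100.0% and 100.0% in mock, at a gene level of 6.54 and 7.67 FPKM in siCirbp and 6.43 and 7.31 FPKM in mock. Its only other transcript, NM_020042, takes up the remainder, so both are 1 event. Both are listed with the same start and end, so their shares do not compare polyadenylation sites. Ddx6, an RNA helicase gene of mRNA decay, had 32.4% and 65.7% in NM_181324 in siCirbp, against 0.00376% and 0.00412% in mock (limma adjusted p = 0.285). For Aak1, an endocytosis kinase gene, NM_001040106 made up 51.2% and 58.9% in siCirbp, against 100.0% and 95.4% in mock (limma adjusted p = 0.285). It shares its listed start and end with the other Aak1 transcript, NM_177762. For Kif21a, a kinesin gene, NM_001109042 made up 34.9% and 25.6% in siCirbp, against 0.513% and 0.0243% in mock, but its values include an estimate the deposited tables mark as failed. How the authors' software divided reads between overlapping transcripts was not tested.

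For 101 genes whose transcripts share a start and differ by at least 100 nt in their 3′ end, the share of the most distal end was higher in siCirbp in 55 and lower in 46, with a median difference of 0.36 percentage points. This reading was added after the data were seen. The median distal share was 55.7% and 56.7% in siCirbp, against 58.6% and 57.3% in mock, which are medians of levels and so need not equal the median of differences in sign. None passed (smallest limma adjusted p = 0.293), and 2 genes with a higher and 3 with a lower distal share had an unadjusted p under 0.05. Rbmx, an RNA-binding splicing factor gene, was one of the 3: its distal share was 46.7% and 48.8% in siCirbp, against 69.5% and 65.4% in mock, while the gene was at 21.8 and 18.5 FPKM in siCirbp, against 8.67 and 7.99 FPKM in mock. Ppp2r1b, a phosphatase scaffold gene, had 28.0% and 23.9% in siCirbp, against 44.8% and 42.3% in mock. Odf2, a centriole gene, had 91.6% and 84.3% in siCirbp, against 73.96% and 74.3% in mock.

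The siRbm3 libraries share the mock controls, so only levels are set beside those above. Mcm5 was at 23.3 and 14.7 FPKM in siRbm3, and Birc5 at 56.3 and 59.5 FPKM, each between the siCirbp and the mock values. These genes are examples, and not all named genes went this way. 2810417H13Rik was at 14.2 and 4.60 FPKM in siRbm3, the second below both mock libraries (5.46 and 6.03). Lgals3 split in siRbm3, at 17.5 and 80.9 FPKM. Fos was at 2.27 and 3.27 FPKM and Ptchd1 at 0.553 and 1.1 FPKM in siRbm3, which overlaps the siCirbp values, and Col12a1 at 64.5 and 93.6 FPKM, the first between the siCirbp and mock values and the second within those of mock. At 32 °C Mcm5 was at 1.75 and 2.44 FPKM, Birc5 at 10.6 and 11.7 FPKM and Fos at 1.34 and 1.30 FPKM in mock cells, all below mock at 37 °C. Nme1, which rose in siCirbp, was at 110 and 135 FPKM in mock at 32 °C, above mock at 37 °C (64.3 and 65.6).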

How the data were processed

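Polyadenylated RNA of mouse embryonic fibroblasts was sequenced as 76 nt single-end reads, per the labels' protocols, and aligned with TopHat 1.1.2 to mm9, per the submitters' processing notes. FPKM, one value for each of 28702 RefSeq transcripts, were used as deposited by the authors. The authors' coverage, a signal per transcript, gave the fragments per gene: at 75 bases per read, 93.6% to 94.0% of low values came out whole within 0.05. Transcript lengths in nt are per the file headers, and PAR-CLIP sites carry a score that the authors deposited with them. The version of the transcript quantifier and how reads with several positions were counted are not given in the sources used here. FPKM were summed per gene, and log2(FPKM + 1) of all 8 RNA-seq libraries was fitted with limma 3.58.1 in R 4.3.3 (4 group means, trend and robust options, two-sided, Benjamini-Hochberg adjustment over 10725 genes, threshold 0.05); fold changes are on that scale, which understates low genes. This procedure was also run on simulated data. These had the same spread per gene in all groups, so they do not show how it behaves where groups differ in spread. Among genes with a mean of at least 1 FPKM, 135 with only short transcripts were removed, and 69 kept genes hold a transcript estimate marked as failed. Named genes are Cirbp, Rbm3, the 12 largest rises and falls among called genes whose higher group averaged 5 FPKM or more (a level some reach in that group alone), with no overlap of libraries, members of each list with the smallest adjusted p, Mcm2 to Mcm7, top transcripts and top PAR-CLIP genes; other list members are named as examples of a role, chosen after their values were seen. Members and lists were chosen with earlier results of these data known. Promoter windows of GRCm38.p6 from RefSeq matched 8633 of the 10725 genes by symbol. Alternatives were the pseudocount, the filter, scaling, length correction, a replicate block and leaving out each library. Some genes that the naming rule selects are not reported here, while counts and medians include them.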

Additional observations from a re-analysis of the deposited data

How the results depend on the processing

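The number of genes past limma's adjusted p of 0.05, 458 in the text, was 383 with a pseudocount of 0.1, 435 with a mean of at least 5 FPKM, 338 with median centring, 455 with quantile normalization, 401 with the highest transcript only, 460 without the trend and robust options and 460 without genes with a failed estimate. It was 41 with no FPKM filter (none of the 458 among them), 131 with only 2 groups in the fit (92 of them shared) and 108 with the length trend removed (96 shared). Leaving out 1 library at a time gave 0 to 1762: 0 without either mock library at 37 °C, either at 32 °C or siCirbp replicate 2 (1175 to 2567 at an unadjusted p under 0.05), 806 without siCirbp replicate 1, and 1762 or 1757 without siRbm3 replicate 1 or 2. Alternatives added after the data were seen gave 1759 without both siRbm3 libraries, 0 without both mock 32 °C libraries (2055 at an unadjusted p under 0.05) and 1084 with a weight per group; the first and the last hold all 458 genes. The cause of these shifts was not tested.

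A replicate block gave 154 genes, 152 of them among the 458. Pairing of the numbers was not shown: differences between replicates of siCirbp and mock correlated at -0.03 across genes. With the block 24 of 52 replication, 21 of 50 mitotic and 4 of 22 immediate early genes passed.

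Cirbp stayed at -0.94 and passed without siRbm3 replicate 1 or 2 or both (limma adjusted p = 0.0408, 0.0408 and 0.0407) and with a weight per group (0.0190). Its value ran from -1.31 to -0.57 when 1 library was left out. Transcript shares past the threshold numbered 0 to 7 when 1 library was left out, with 7 without mock 37 °C replicate 1 and 2 without replicate 2, and 0 otherwise. The median of genes with a Cirbp site ran from 0.07 to 0.16. Of 64 named genes that passed, none changed sign in any alternative. Leaving out 1 library could not change a sign, since all 377 higher and 81 lower genes had no overlap of libraries. Of the 64, 30 still passed with only 2 groups in the fit, 31 with the length trend removed and 0 with no FPKM filter. Among named genes that did not pass, the Hist1h1c log2 fold change ran from -2.37 without siCirbp replicate 1 to 0.28 without replicate 2. The Rc3h2 log2 fold change ran from -0.13 without siCirbp replicate 2 to 0.022 without replicate 1, with 0.18 once the length trend was removed.

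Groups of 2 libraries limit the precision. Fragment counts are not given as such in the files, and no interval rests on them.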
